A study of Mus musculus with 4 samples.

Results

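The genes described here encode the subunits of the mitochondrial respiratory chain and ATP synthase, in single-cell RNA-seq of thymic invariant natural killer T (iNKT) cells from wild-type (WT) mice and mice knocked out for ACC1, the cytosolic acetyl-CoA carboxylase. Members were taken by gene symbol: Ndufa, Ndufb, Ndufc, Ndufs and Ndufv genes without the assembly factors, Sdha to Sdhd, Uqcr genes, Cox4i to Cox8 genes, Atp5 genes, Cycs, and the mt-Nd, mt-Co, mt-Cytb and mt-Atp genes. The rule found 99 of the 32285 annotated genes, of which 86 lie in the nuclear genome and 13 in mitochondrial DNA. Complex I (NADH dehydrogenase) had 36 nuclear and 7 mitochondrial members, complex II (succinate dehydrogenase) 4 nuclear, complex III (cytochrome bc1) 8 nuclear and 1 mitochondrial, complex IV (cytochrome c oxidase) 20 nuclear and 3 mitochondrial, and complex V (ATP synthase) 17 nuclear and 2 mitochondrial. Cycs, cytochrome c, stood alone. Ndufa4 and Ndufa4l2 were placed in complex IV, where the Ndufa4 protein is now assigned.

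Both genotypes were primary iNKT cells from the thymus of young adult mice 6 to 8 weeks old, enriched on magnetic beads and sorted as CD3+ CD1d tetramer+, with 2 libraries per genotype. Which part of the ACC1 gene was deleted, in which strain, by which Cre line if any, is not stated in the sources used here. Nor is it stated whether each library had an animal of its own, so genotype p-values measure only the spread between these libraries. Class comparisons have the library as a term, so their p-values measure the spread of the class differences across the libraries. The libraries held 5499 to 9927 barcodes and 29.1 to 74.2 M UMIs (unique molecular identifiers, each a counted transcript molecule), and 27023 cells in clusters with iNKT marker genes were used, with 23.6 to 65.2 M UMIs per library. Any pair of libraries shared 10 to 27 barcodes. The libraries numbered 1 carried Ddx3y, a Y-linked gene, at 77.4 and 77.3 CPM and were the shallower in both genotypes. Those numbered 2 carried Xist, expressed from the inactive X chromosome, at 598 and 670 CPM, so number, depth and sex cannot be told apart. CPM are UMI counts scaled to the same library total, after the totals were adjusted by TMM factors. Values per library are given in the order WT 1, WT 2, ACC1 KO 1 and ACC1 KO 2 throughout.

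The respiratory chain passes electrons from NADH through complex I, or from succinate through complex II, to coenzyme Q, then through complex III, cytochrome c and complex IV to oxygen. Complexes I, III and IV pump protons, and ATP synthase uses the gradient to make ATP. Complex II is wholly nuclear encoded, while the other complexes join nuclear subunits made in the cytosol to a core of mitochondrially encoded subunits made on mitochondrial ribosomes, so both genomes have to be read for a complete chain. Lymphocytes are known to make more mitochondria when they grow and divide, and the thymic iNKT1, iNKT2 and iNKT17 subsets are told apart by transcription factors, T-bet, PLZF and RORγt, and by cytokines.

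Promoters were read first, because NRF1 and ETS-family factors such as GABP are known regulators of nuclear respiratory genes. Of the 86 nuclear members, 70 matched a RefSeq promoter window (GRCm38.p6, 250 bases before to 50 after a start, 75 windows), and the windows were searched on both strands; the ETS and YY1 motifs can share the letters AAG, and the YY1 and NRF1 motifs the letters GCG. The NRF1 motif GCGCANGCG was in a window of 21 of the 70 genes (30%), against 9.63% of 17492 protein-coding genes. The ETS motif CCGGAAG was in 17 (24.3%, against 12.9%), the YY1 motif AAGATGGCG in 7 (10%, against 2.14%), and CCAAT in 31 (44.3%, against 42.3%). At least 1 of the NRF1, ETS and YY1 motifs was in 37 of 70 (52.9%), against 21.8% of all genes. The 6 sequences below are the bases just before the start of genes whose levels are followed in the results, all on the minus strand and written 5′ to 3′ along the gene. Sdha and Sdhd are complex II genes that moved apart in iNKT2-like cells, Atp5g2 and Atp5g3 encode the same mature c subunit and moved apart, Ndufs5 rose in 4 classes, and Cox6a1 differed most between the library numbers among nuclear members. Capitals mark every match to any of these 4 motifs in the stretch printed, and overlapping matches to the NRF1 motif on both strands are counted once.
Sdha, chr13:74350241-74350360: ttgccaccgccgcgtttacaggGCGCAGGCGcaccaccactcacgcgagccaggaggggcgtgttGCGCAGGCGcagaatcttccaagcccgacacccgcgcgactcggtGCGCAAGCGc
Sdhd, chr9:50603850-50603969: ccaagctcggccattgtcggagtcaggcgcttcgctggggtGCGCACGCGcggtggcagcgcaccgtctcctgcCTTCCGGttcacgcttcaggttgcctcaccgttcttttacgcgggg
Atp5g2, chr15:102671048-102671167: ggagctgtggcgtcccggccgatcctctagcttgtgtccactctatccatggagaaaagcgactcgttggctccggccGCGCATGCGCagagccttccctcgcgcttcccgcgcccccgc
Atp5g3, chr2:73911327-73911446: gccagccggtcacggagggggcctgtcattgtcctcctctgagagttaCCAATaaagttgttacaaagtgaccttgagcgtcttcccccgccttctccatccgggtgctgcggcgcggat
Ndufs5, chr4:123718187-123718306: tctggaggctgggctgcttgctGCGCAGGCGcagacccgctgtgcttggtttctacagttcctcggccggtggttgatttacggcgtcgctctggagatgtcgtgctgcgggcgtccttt
Cox6a1, chr5:115348959-115349128: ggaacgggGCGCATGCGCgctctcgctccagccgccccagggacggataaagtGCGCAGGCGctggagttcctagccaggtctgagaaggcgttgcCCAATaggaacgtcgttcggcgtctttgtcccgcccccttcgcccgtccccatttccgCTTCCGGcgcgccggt
In these stretches Sdha held 3 NRF1 matches, Sdhd an NRF1 and an ETS match, Atp5g2 and Ndufs5 an NRF1 match each, Atp5g3 a CCAAT match, and Cox6a1 a pair of NRF1 matches with a CCAAT and an ETS match. Outside the stretches printed, the window of Atp5g3 also held an NRF1 match, after the start, and that of Sdha a CCAAT match further upstream. In iNKT2-like cells the median log2 change was 0.52 for the 21 members with an NRF1 match and 0.53 for 45 tested members without, and in cycling cells it was 0.50 and 0.42.

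Across all iNKT cells, levels of nuclear members spanned from undetected to over 800 CPM; UMIs count 3′ ends, 1 per molecule, so levels are compared between genes without scaling by length. Cox8a (a small structural subunit of complex IV) was the most abundant nuclear member at a mean of 812 CPM over the 4 libraries, followed by Atp5e (the epsilon subunit of ATP synthase) at 702 and Uqcrh (the hinge subunit of complex III) at 677. Ndufv1 and Ndufs1, core subunits of the NADH-oxidising arm of complex I, were among the lowest of the general subunits at 40.4 and 42.0 CPM. Subunits with tissue-specific copies were read almost entirely from the general copy: Cox4i1 had 513 CPM and Cox4i2 0.134, Cox6a1 166 and Cox6a2 0.336, Cox6b1 350 and Cox6b2 0.348, and Cox7a2 287 and Cox7a1 0.683. No UMI was counted for Cox8c or Cox7b2, which at a floor of 3 counts per library allows up to 0.046 to 0.127 CPM on unscaled totals. The mitochondrial members stood higher: mt-Atp6, the proton channel subunit of ATP synthase, had 9870, 3366, 9004 and 2976 CPM, and mt-Nd6 was lowest at 14.8 to 16.1 CPM. mt-Nd6 lies antisense to the others, and mt-Atp8 and mt-Nd4l overlap mt-Atp6 and mt-Nd4. The handling of strand in counting is not given, so these genes are uncertain, as are nuclear members with near-identical pseudogenes.

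Cells were grouped on genes that exclude the members, and clusters were named from marker genes as iNKT1-like (21245 cells), iNKT2-like (1349), iNKT0-like (348, early iNKT cells), iNKT17-like (221), cycling (1188) and interferon-responding (2672). The share of all UMIs that came from nuclear members was lowest in interferon-responding (mean 1.55%) and iNKT1-like cells (1.61%), and was 1.95% in iNKT17-like, 2.0% in iNKT0-like, 2.20% in cycling and 2.34% in iNKT2-like cells. Within each library, iNKT2-like cells held 1.37 to 1.5 times the nuclear share of iNKT1-like cells, cycling cells 1.32 to 1.42 times, iNKT17-like cells 1.15 to 1.37 times and iNKT0-like cells 1.14 to 1.36 times, so this share was higher in these 4 classes in all 4 libraries. These shares are of raw UMI totals. On totals scaled by TMM factors, as in the fits that follow, the summed nuclear members were 1.22 to 1.51 times those of iNKT1-like cells in iNKT2-like and 1.2 to 1.42 times in cycling cells, but 0.965 to 1.14 times in iNKT17-like and 0.868 to 1.08 times in iNKT0-like cells. The TMM factors were 1.18 to 1.24 in iNKT0-like and 0.869 to 1.0 in iNKT1-like cells, so the higher raw share of iNKT0-like and iNKT17-like cells did not hold in every library under this scaling. The mitochondrial share followed another order, highest in iNKT17-like (2.90%) and iNKT2-like cells (2.49%) and lowest in iNKT0-like (1.99%) and cycling cells (1.96%). Relative to iNKT1-like cells it was 1.29 to 1.37 times in iNKT17-like cells, 1.08 to 1.37 times in iNKT2-like cells and 0.87 to 0.974 times in cycling cells. In iNKT0-like cells it ran from 0.789 to 1.23 times, below 1 in 3 libraries and above in ACC1 KO 2; on scaled totals it was 0.642 to 0.91 times, below 1 in all 4. A cell in the cycling and iNKT2-like classes also held more UMIs in all (means of 12818 and 12332, against 5767 in iNKT1-like cells), and their nuclear member UMIs per cell were 2.80 to 3.30 and 2.66 to 3.81 times those of iNKT1-like cells.

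**Figure D1:**
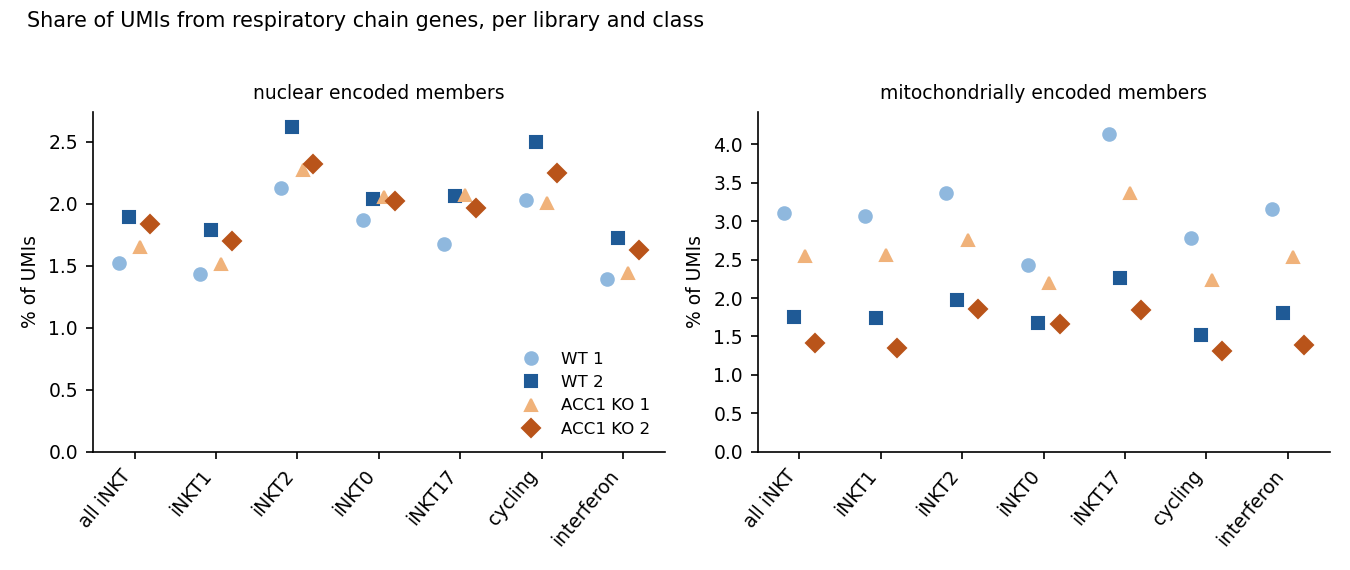
Share of UMIs (%) from nuclear (left) and mitochondrially encoded (right) respiratory chain genes in all iNKT cells and in each class; each point is 1 library. Nuclear shares are highest in iNKT2-like cells at 2.13 to 2.62%, and in every class the libraries numbered 1 lie above those numbered 2 for the mitochondrial share.

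Each class was compared with iNKT1-like cells in 1 fit over the class sums of the 4 libraries, with the library as a term. Of the 86 nuclear members 80 passed the filter on low counts; Cox4i2, Cox6a2, Cox7b2, Cox8b, Cox8c and Ndufa4l2 did not, and Cox7a1 and Cox6b2 passed mainly through classes where they were higher. These rare copies are therefore left out of the counts and medians against iNKT1-like cells, which cover 78 nuclear members. A gene is called where the p of the edgeR quasi-likelihood test, adjusted by the Benjamini-Hochberg method over 11544 genes, fell below 0.05; changes are log2 differences ± standard error. In iNKT2-like cells 67 of the 78 nuclear members were called higher and 2 lower, with a median of 0.52, against 30.5% of all genes called higher and 30.8% lower and a median over all genes of -0.02. Of the 13 mitochondrial members 6 were higher and 2 lower, with a median of 0.15. By complex, 32 of 36 nuclear genes of complex I, 3 of 4 of complex II, 7 of 8 of complex III, 10 of 12 of complex IV, 14 of 17 of complex V and Cycs were higher. With each cell thinned to 2000 UMIs and shallower cells left out, 66 members of both genomes were called higher, against 73 at full depth. The share of all genes called on thinning is not given here. Thinning keeps the make-up of each cell on average, so it does not test whether the changes go with larger cells. Markers of CD8 or naive T cells moved with this class: the 6 genes summed to 273 to 347 CPM in iNKT2-like cells, with none at 0, against 1.4 to 4.48 CPM in iNKT1-like cells. Stromal markers summed to 71.5 to 119 CPM, with 4 of 8 at 0, against 19.3 to 22.9 CPM. The part of either in these changes was not tested.

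In complex I, Ndufc2, an accessory subunit of the membrane arm, had 98.3, 112, 115 and 111 CPM in iNKT1-like cells and 229, 243, 246 and 204 CPM in iNKT2-like cells, a log2 change of 1.07 ± 0.07 (adjusted p = 1.9e-18, edgeR quasi-likelihood test). The ranges did not overlap. Ndufc1, its partner in the membrane arm, rose by 0.97 ± 0.08, and Ndufs5, another accessory subunit, by 0.87 ± 0.07. In complex II the subunits split: Sdhb, the iron-sulfur subunit, went from 61.9, 94.6, 67.0 and 86.1 CPM to 106, 179, 121 and 145 CPM (0.83 ± 0.07), and Sdhc and Sdhd, the membrane anchors, rose by 0.22 ± 0.08 and 0.38 ± 0.08. Sdha, the flavoprotein that oxidises succinate, had 124, 91.6, 116 and 89.6 CPM in iNKT1-like and 97.8, 83.8, 102 and 75.2 CPM in iNKT2-like cells (-0.22 ± 0.07), lower in every library. That call was lost without ACC1 KO 2 (-0.17). The Sdhc and Sdhd calls were lost on thinning to 2000 UMIs (0.31 and 0.22).

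Uqcrq, a small subunit of complex III, had 112, 199, 129 and 205 CPM in iNKT1-like cells and 234, 446, 268 and 384 CPM in iNKT2-like cells (1.04 ± 0.07); within each library it was about as much higher, while the libraries of each number differed in level. Uqcr10, also a small subunit, rose by 0.84 ± 0.07. Cycs, the soluble electron carrier whose release also triggers apoptosis, went from 66.3, 97.3, 69.4 and 95.9 CPM to 126, 201, 139 and 149 CPM (0.90 ± 0.08). In complex IV, Cox7a2 rose by 0.88 ± 0.07, whereas Cox7a2l, the related factor that joins complexes III and IV into supercomplexes, had a change of -0.22 ± 0.08. The Cox7a2l call was lost without WT 2 (-0.16), ACC1 KO 1 (-0.20) or ACC1 KO 2 (-0.14), though the change stayed negative whichever library was left out. In ATP synthase, Atp5md, a small subunit of the membrane part, rose by 0.87 ± 0.07. The genes of the c ring rose unequally, Atp5g3 by 0.86 ± 0.07, Atp5g1 by 0.64 ± 0.08 and Atp5g2 by 0.22 ± 0.07, and the Atp5g2 call was lost without WT 1 (0.14) or on thinning (0.19).

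Copies of complex IV subunits typical of muscle or testis were rare. Cox7a1, the heart and muscle copy of Cox7a2, had 4, 18, 7 and 11 UMIs in iNKT1-like cells (0.223 to 0.409 CPM) and 7, 10, 10 and 19 UMIs in the far fewer iNKT2-like cells (2.49 to 3.89 CPM). Cox6b2, the testis copy of Cox6b1, had 1, 1, 0 and 10 UMIs in iNKT1-like and 3, 8, 5 and 9 UMIs in iNKT2-like cells. Since the filter let them in through such classes, no test is read for them; both lay far below the general copies.

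The 6 mitochondrial members called higher in iNKT2-like cells were mt-Nd1, mt-Nd3, mt-Nd4l, mt-Nd6, mt-Cytb and mt-Co2. mt-Nd3, a core subunit of complex I, went from 650, 375, 465 and 223 CPM to 922, 504, 784 and 464 CPM (0.69 ± 0.10), and mt-Nd1, which forms part of the quinone site, from 871, 987, 533 and 681 CPM to 1216, 1368, 767 and 1157 CPM (0.56 ± 0.09). Both were higher in all 4 libraries. mt-Cytb, the cytochrome b of complex III, rose by 0.44 ± 0.08, and mt-Co2, a core subunit of complex IV, by 0.20 ± 0.07. mt-Nd5, a proton-pumping subunit of complex I, was lower (-0.42 ± 0.08), as was mt-Co1, the catalytic subunit of complex IV (-0.29 ± 0.08); thinned to 2000 UMIs, neither was called (-0.19 and -0.15). A list of 9 RNA quality and handling genes moved with this class: 7 were lower and 2 higher in iNKT2-like cells (median -0.77), with Malat1, a transcript kept in the nucleus, at -0.93 ± 0.07. Its part in these results was not tested.

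**Figure D2:**
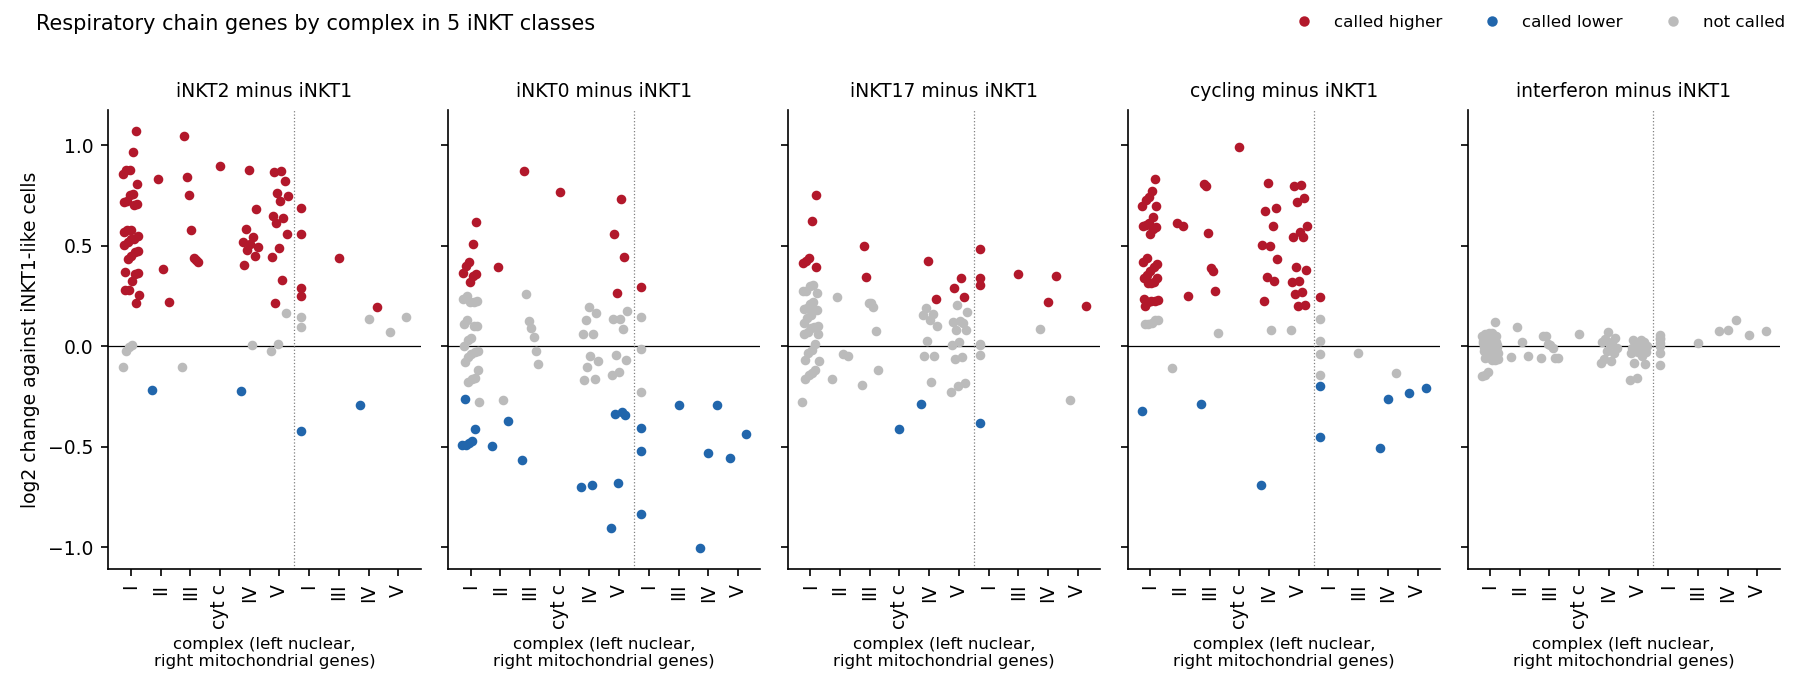
Log2 change of each tested member against iNKT1-like cells (vertical axis) by complex, with nuclear genes left of the dotted line and mitochondrial genes right of it, in 5 classes; red is called higher, blue called lower, and Cox7a1 and Cox6b2 are not drawn. Nuclear genes lie mostly above 0 in iNKT2-like and cycling cells (medians 0.52 and 0.39), and on both sides of it in iNKT0-like cells (median 0.017).

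In cycling cells most nuclear members rose and most mitochondrial members did not. Of the nuclear members 66 of 78 were called higher and 3 lower (median 0.39), and of the mitochondrial members 1 of 13 was higher and 6 lower (median -0.14), against 27.4% and 28.2% of all genes. Cycs changed most among the general subunits, to 152, 211, 133 and 165 CPM (0.99 ± 0.08), above all 4 libraries of iNKT1-like cells. Ndufb6, a membrane arm subunit of complex I, rose by 0.83 ± 0.08, Uqcrq by 0.81 ± 0.07, Cox7a2 by 0.81 ± 0.07 and Atp5g3 by 0.80 ± 0.07. Atp5o, the stalk subunit OSCP, rose by 0.80 ± 0.08, Cox5a, a nuclear subunit of complex IV, by 0.69 ± 0.07, and the anchor Sdhd by 0.61 ± 0.08. The 3 nuclear genes that fell were Cox7a2l, Ndufa6 (an accessory subunit of complex I) and Uqcrh. Cox7a2l went from 334, 386, 341 and 423 CPM to 192, 233, 226 and 259 CPM (-0.69 ± 0.08), with no overlap, and Ndufa6 and Uqcrh changed by -0.32 ± 0.08 and -0.29 ± 0.07.

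mt-Co1 in cycling cells had 3190, 1784, 3531 and 2055 CPM, against 4330, 2688, 4926 and 2961 CPM in iNKT1-like cells (-0.51 ± 0.08), and mt-Nd5 changed by -0.45 ± 0.08. Only mt-Nd1 was called higher (0.25 ± 0.09), and that call turned to -0.082 and -0.014 when clusters were drawn at resolutions 0.5 and 2. The number of members called higher also depended on the grouping, with 69 at the resolution used and 44 at resolution 0.5 (Cox7a1 and Cox6b2 counted). Thinned to 2000 UMIs per cell, 53 were called higher. The share of all genes called at resolution 0.5 or on thinning is not given here. RNA quality genes moved here too, 4 of 9 lower and 2 higher, and markers of CD8 or naive T cells summed to 123 to 127 CPM with none at 0; the part of either was not tested.

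In iNKT0-like cells nuclear members were called in both directions, in shares near those of all genes. Of 78, 15 were called higher and 16 lower (median 0.017), and of the mitochondrial members 1 was higher and 9 lower (median -0.40), against 19.3% higher and 23.5% lower among all genes and a median over all genes of -0.07. The split depended on scaling. With the size factors of DESeq2, which moved the median over all genes to 0.01, 25 nuclear members were higher and 13 lower. Of the mitochondrial members 2 were higher and 9 lower. Calls over all genes with those size factors are not given here, so these counts are not read as a result about the members. Uqcrq had 201, 383, 280 and 319 CPM (0.87 ± 0.09), Cycs 90.4, 148, 148 and 160 CPM (0.77 ± 0.12) and Atp5md 288, 371, 387 and 410 CPM (0.73 ± 0.09), each above iNKT1-like cells in every library. Ndufb6 rose by 0.62 ± 0.15. Lower were Cox7a2l (-0.70 ± 0.10), Cox8a (-0.69 ± 0.08), Atp5l, the g subunit of ATP synthase (-0.68 ± 0.09), and Uqcrh (-0.56 ± 0.08).

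The c subunit genes moved in opposite directions in iNKT0-like cells. Atp5g2 had 451, 450, 529 and 509 CPM in iNKT1-like and 251, 240, 286 and 257 CPM in iNKT0-like cells (-0.90 ± 0.09, adjusted p = 3.7e-12, edgeR quasi-likelihood test). Atp5g3 had 256, 206, 305 and 201 CPM and then 429, 269, 452 and 283 CPM (0.56 ± 0.09). Atp5g1, at 193, 296, 214 and 290 CPM and then 164, 231, 256 and 276 CPM, was not called. Thus Atp5g2 was the most abundant of them in each library of iNKT1-like cells, and Atp5g3 in each library of iNKT0-like cells. Complex II was split as well, with Sdhb at 0.40 ± 0.11 and Sdhd at -0.50 ± 0.18; the Sdhd call was lost without WT 1 (-0.41), WT 2 (-0.33) or ACC1 KO 2 (-0.43), and the Sdhb call on thinning (0.16).

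mt-Co1 showed the largest fall among mitochondrial members of iNKT0-like cells, to 2280, 1677, 1712 and 1571 CPM (-1.0 ± 0.09), below the lowest iNKT1-like library, and mt-Nd5 changed by -0.83 ± 0.12. These sums rest on 49 to 129 cells per library, and without WT 2 the members called lower numbered 13 rather than 25. Markers of double-positive thymocytes, 9 genes, summed to 60.7 to 376 CPM in iNKT0-like cells, with Rag2 and Ptcra at 0, against 11.1 to 20.3 CPM in iNKT1-like cells. Markers of CD8 or naive T cells, which share Cd8a and Cd8b1 with that list, summed to 65.5 to 429 CPM, with Dapl1 at 0, and stromal markers to 135 to 170 CPM, with 4 of 8 at 0. RNA quality genes moved as well, 6 of 9 lower and 2 higher. The part of any of these was not tested.

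**Figure D3:**
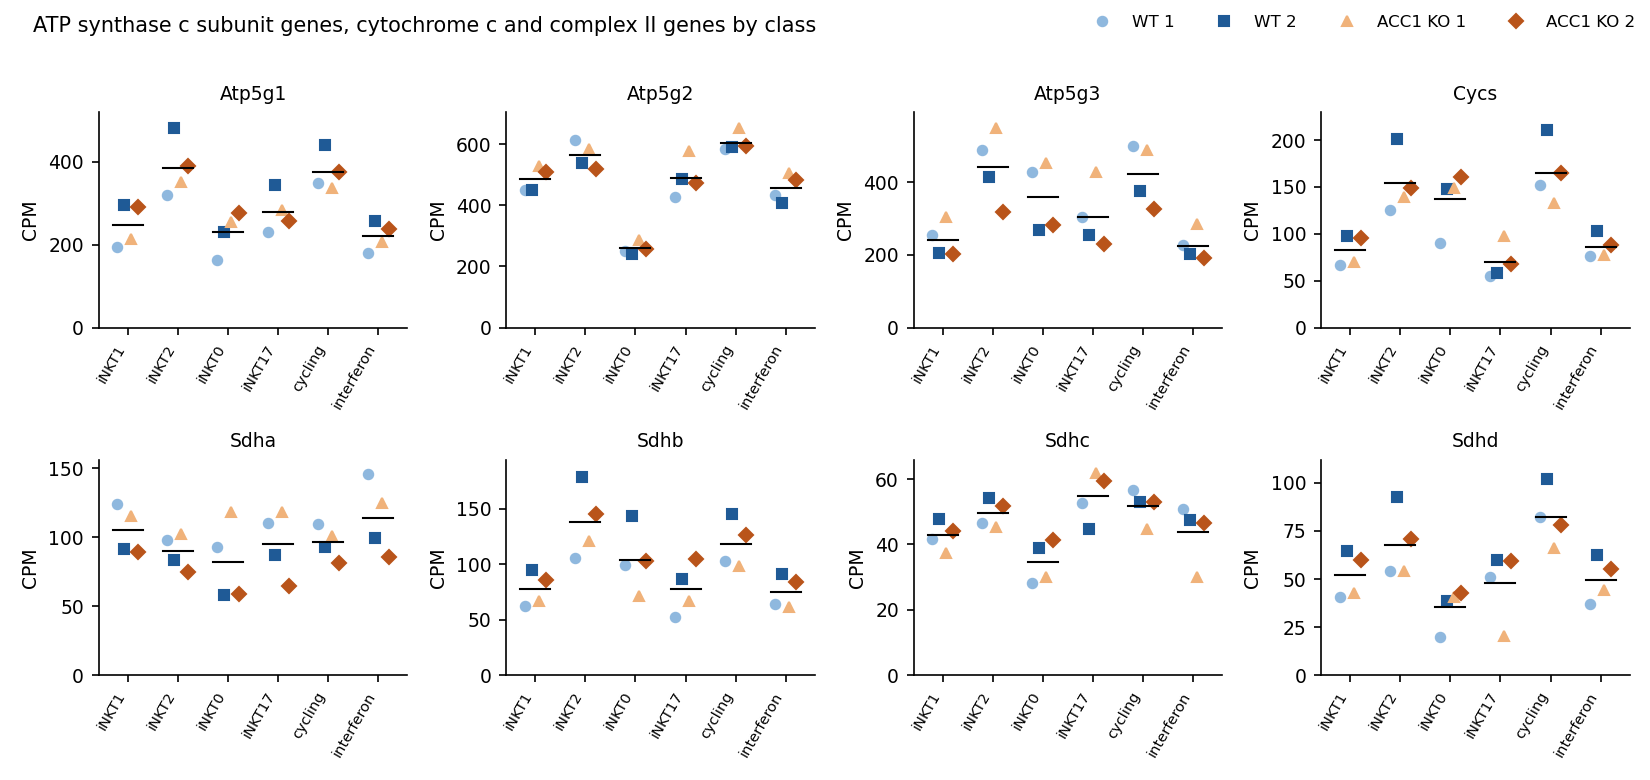
CPM (vertical axes, from 0) of the ATP synthase c subunit genes, Cycs and the complex II genes in each class; points are libraries and bars their mean. Atp5g2 is lowest in iNKT0-like cells at 240 to 286 CPM, where Atp5g3 has 269 to 452 CPM. The mean of Cycs is highest in cycling and iNKT2-like cells, but iNKT0-like cells lie above iNKT2-like cells in both ACC1 KO libraries.

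In iNKT17-like cells, of the mitochondrial genes 7 of 13 were called higher and 1 lower (median 0.20), and of the nuclear genes 13 of 78 were higher and 2 lower (median 0.12), against 13.3% and 14.5% of all genes and a median over all genes of -0.05. With the size factors of DESeq2, which moved that median to 0.02, 26 nuclear genes were higher and 1 lower. Calls over all genes with those size factors are not given here, so this count is not read as a result about the members. mt-Nd3 had 937, 460, 685 and 314 CPM (0.48 ± 0.11), above iNKT1-like cells in each library, and mt-Cytb, mt-Co3 (a core subunit of complex IV) and mt-Nd1 rose by 0.36 ± 0.08, 0.35 ± 0.08 and 0.34 ± 0.10. The exception was mt-Nd5 (-0.38 ± 0.11), whose call was lost without ACC1 KO 1 (-0.27) or ACC1 KO 2 (-0.25) and on thinning (-0.17). Among nuclear genes, Ndufs5 had 112, 189, 139 and 181 CPM, against 68.2, 111, 77.2 and 108 CPM in iNKT1-like cells (0.75 ± 0.10), Ndufv3, an accessory subunit of the NADH-oxidising module, rose by 0.62 ± 0.10, Uqcr10 by 0.50 ± 0.09 and Cox7c, a small subunit of complex IV, by 0.43 ± 0.08. Cycs was called lower (-0.41 ± 0.16), with 54.5, 58.4, 97.9 and 67.8 CPM, but it was higher than in iNKT1-like cells in ACC1 KO 1, and the call was lost without WT 1 (-0.43), WT 2 (-0.14) or ACC1 KO 2 (-0.31). Cox8a (-0.29 ± 0.08) was not called without ACC1 KO 2 (-0.13), and without that library no member was called lower. ACC1 KO 1 held 26 and ACC1 KO 2 32 iNKT17-like cells. Gamma-delta T cell genes summed to 185 to 417 CPM in this class, with Trdc and Trdv4 at 0, against 42.3 to 74.3 CPM in iNKT1-like cells. Regulatory T cell genes summed to 50.9 to 95.1 CPM, with Foxp3 at 0, against 9.52 to 17.4 CPM, and myeloid genes to 263 to 350 CPM, with 10 of 14 at 0, against 154 to 187 CPM. Of the 9 RNA quality genes 3 were lower and 0 higher (median -0.31); the part of these lists in the changes was not tested.

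Interferon-responding cells did not differ detectably from iNKT1-like cells in any member. By the edgeR quasi-likelihood test 0 of 78 nuclear and 0 of 13 mitochondrial members were called in either direction, against 5.19% of all genes higher and 3.79% lower; 2 nuclear and 0 mitochondrial members had an unadjusted p below 0.05, and DESeq2 also called 0. The medians were -0.0062 and 0.04. Their nuclear share of raw UMIs was 0.954 to 0.973 times that of iNKT1-like cells, slightly lower in all 4 libraries. On totals scaled by TMM factors the summed nuclear members were 0.978 to 1.02 times those of iNKT1-like cells, with WT 1 at 1.02, so this did not hold in every library.

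Within iNKT1-like cells, 1 small cluster stood apart in the balance of the genomes. It held 104 cells (2, 40, 22 and 40 by library) with a median of 2341 UMIs, and 0.381% of its UMIs came from nuclear members and 3.96% from mitochondrial members. The other 7 iNKT1-like clusters had 1.37 to 2.04% and 1.56 to 2.43%. Clusters were formed without the members, but no test was made of 1 cluster against the others.

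Other mitochondrial gene lists were counted in the same fits, where 30.5% of all genes were called higher and 30.8% lower in iNKT2-like cells. Those shares were 27.4% and 28.2% in cycling cells and 19.3% and 23.5% in iNKT0-like cells. Of 78 mitochondrial ribosome genes 60 were higher and 1 lower in iNKT2-like cells (median 0.38) and 55 and 1 in cycling cells (median 0.33), while in iNKT0-like cells 9 were higher and 13 lower. Of 52 assembly factors of the complexes 22 were higher and 5 lower in iNKT2-like cells, 14 and 7 in cycling, and 1 and 13 in iNKT0-like cells. Ndufaf6, an assembly factor of complex I, was at 0.98 ± 0.13 in iNKT2-like cells, and Surf1, which helps to assemble complex IV, at -0.87 ± 0.21 in iNKT0-like cells. Of 17 citric acid cycle genes 7 were higher and 4 lower in iNKT2-like cells and 7 and 0 in cycling cells. Of 30 genes that maintain, transcribe or process mitochondrial DNA and RNA 7 were higher and 2 lower in each of these classes. Both are smaller shares than those of all genes. Coenzyme Q synthesis genes went 2 higher and 5 lower of 13 in iNKT2-like cells and 4 and 5 in cycling cells, and redox defence and uncoupling genes 4 and 4 of 11, and 3 and 2. Of 11 transcriptional regulators 2 were higher and 5 lower in iNKT2-like cells; Gabpb1, a GABP subunit, was at 0.35 ± 0.08 and its relative Gabpb2 at -0.51 ± 0.09, and Nrf1 itself was at 0.31 ± 0.07 in cycling cells.

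The genotype comparison asked whether loss of ACC1, which makes malonyl-CoA for fatty acid synthesis, went with a change in these genes. Over all iNKT cells the edgeR quasi-likelihood test called 0 of 81 nuclear and 0 of 13 mitochondrial members, against 0.00679% of 14719 genes tested; 1 nuclear and 1 mitochondrial member had an unadjusted p below 0.05, and DESeq2 called 0. That fit leaves out the library number, which goes with depth and sex. With the number as a term the call changed for 5 of 94 members: 0 nuclear members were lower and 1 was higher, and 4 of 13 mitochondrial members were lower and 0 higher, against 5.81% of all genes higher and 3.28% lower. The 4 were mt-Nd1 (-0.56 ± 0.12), mt-Nd3 (-0.49 ± 0.12), mt-Co3 (-0.47 ± 0.13) and mt-Nd2 (-0.39 ± 0.12). With that term little replication is left among the 4 libraries, so these calls and errors rest mostly on a spread shared across genes. The nuclear members had a median log2 difference of 0.07, but 0.21 within number 1 and -0.05 within number 2, so the sign depended on the pair of libraries. The mitochondrial members had a median of -0.28, with -0.24 within number 1 and -0.32 within number 2, beside a median of -0.01 over all genes. Of the 13, 9 were lower in ACC1 KO within both numbers and 2 were higher in both. Of the 81 nuclear members 3 were lower in both and 26 higher in both. The share of all genes that moved alike within both numbers was not counted. Without WT 1 the mitochondrial median was 0.10 and without ACC1 KO 2 it was 0.07; the cause was not tested.

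mt-Nd1 had 869 and 958 CPM in WT and 539 and 708 CPM in ACC1 KO (-0.55 ± 0.21, unadjusted p = 0.040, adjusted p = 0.98, edgeR quasi-likelihood test). mt-Cytb had 1877 and 2421 CPM and then 1589 and 1730 CPM (-0.37 ± 0.22), and mt-Nd4, a proton-pumping subunit of complex I, 1041 and 856 CPM and then 838 and 686 CPM (-0.31 ± 0.20). These were the 3 mitochondrial genes in which both ACC1 KO libraries lay below both WT libraries, and mt-Nd6 (14.9 and 14.8, then 15.6 and 16.1 CPM) was the 1 gene with both above. Over all genes tested 15.1% lay below and 14.4% above without overlap.

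The other complex I genes of mitochondrial DNA overlapped between the genotypes. mt-Nd2 had 336 and 880 CPM in WT and 271 and 638 CPM in ACC1 KO (-0.42 ± 0.58), mt-Nd3 646 and 358 and then 484 and 242 CPM (-0.47 ± 0.42), and mt-Nd5 252 and 186 and then 231 and 165 CPM (-0.15 ± 0.24). mt-Nd4l was at 134 and 83.5 and then 144 and 80.2 CPM (0.04 ± 0.35). In complex IV, mt-Co3 had 5425 and 3452 and then 3979 and 2463 CPM (-0.46 ± 0.35), mt-Co2 4941 and 2791 and then 4193 and 2175 CPM (-0.28 ± 0.43), and mt-Co1 4052 and 2440 and then 4338 and 2574 CPM (0.09 ± 0.37). Within both numbers the catalytic subunit gene lay slightly higher and its partners lower in ACC1 KO, none of them called in the fit without the number. In ATP synthase, mt-Atp6 had a difference of -0.14 ± 0.69, and mt-Atp8, at 48.6 and 46.4 and then 70.4 and 45.7 CPM, one of 0.29 ± 0.23.

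**Figure D4:**
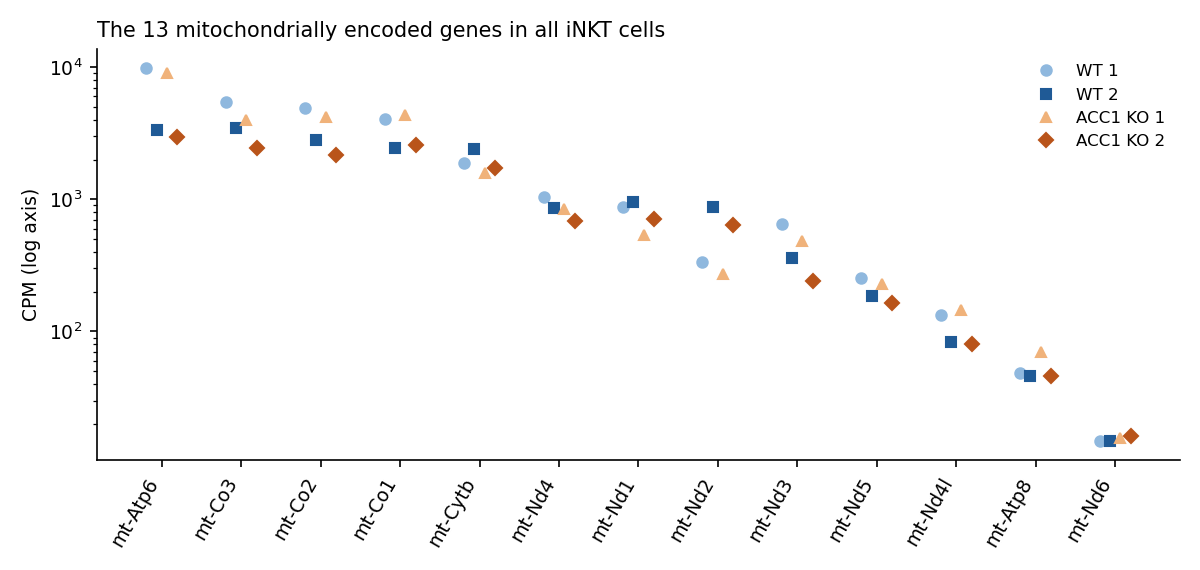
CPM on a log axis of the 13 mitochondrial genes in all iNKT cells, each point 1 library. mt-Atp6 has 9870 and 9004 CPM in the libraries numbered 1 and 3366 and 2976 CPM in those numbered 2, a wider gap than between genotypes of the same number.

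**Figure D5:**
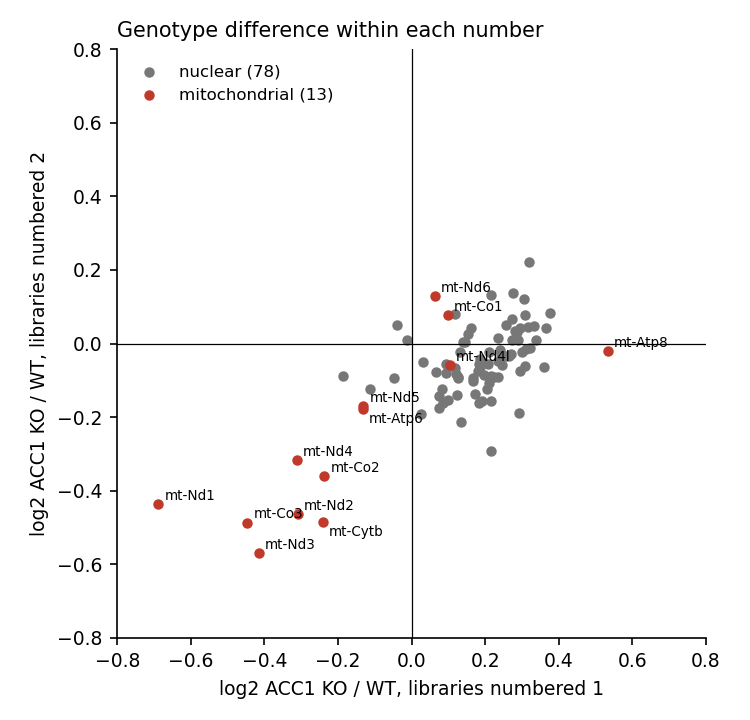
Log2 ratio of ACC1 KO to WT for each member with a mean of at least 1 CPM, within the libraries numbered 1 (horizontal) and numbered 2 (vertical). Of the mitochondrial genes 9 lie in the lower left part, where the share of all genes was not counted. The nuclear genes lie mostly right of 0 with a median near 0.21 on the horizontal and -0.05 on the vertical axis.

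As a share of UMIs, the mitochondrial members made up 3.11, 1.75, 2.55 and 1.41%, which is 2.43 ± 0.957% in WT and 1.98 ± 0.801% in ACC1 KO (SD, n = 2 each; two-sided exact permutation p = 0.6667). With 2 against 2 libraries the smallest p this test can give is 0.3333. Within number 1 the ACC1 KO share was 18% lower and within number 2 19.4% lower. The nuclear members made up 1.52, 1.90, 1.65 and 1.84% (1.71 ± 0.266% and 1.75 ± 0.133%, exact permutation p = 1), 8.72% higher within number 1 and 2.94% lower within number 2. A lower share can mean fewer mitochondrial transcripts per cell or more of other RNA, which such sums cannot tell apart: mitochondrial member UMIs per cell were 159, 122, 129 and 118, and those of nuclear members 77.6, 132, 83.4 and 154. Of the markers of other cell types in these sums, 10 B cell genes overlapped between the genotypes (85.6 to 93.4 CPM in WT and 92.7 to 103 CPM in ACC1 KO), whereas 6 genes of CD8 or naive T cells summed to 28.7 to 33.4 and 55.4 to 58.2 CPM, 5 NK cell genes to 72.3 to 112 and 27.4 to 67.8 CPM, and 4 gamma-delta T cell genes to 68.5 to 73.2 and 42.4 to 45.0 CPM. Myeloid genes, 14 in number, summed to 169 and 181 CPM in WT and 154 and 152 CPM in ACC1 KO. None of these genes was at 0. The mix of classes differed too. iNKT2-like were 187 of 4615 and 232 of 9017 WT cells, and 385 of 5601 and 545 of 7790 ACC1 KO cells. iNKT17-like cells numbered 82 and 81, and then 26 and 32. In iNKT2-like cells the CD8 or naive T cell genes summed to 273 to 347 CPM, against 1.4 to 4.48 CPM in iNKT1-like cells. On the same mix of classes the mitochondrial ratio of ACC1 KO to WT was 0.805, against 0.815. The 9 RNA quality and handling genes had a median log2 difference of 0.42 in all iNKT cells and by class of 0.66 in iNKT2-like cells, 0.49 in interferon-responding cells, 0.48 in cycling cells and 0.46 in iNKT1-like cells. The part of these lists in the shares was not tested.

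Nuclear members without overlap between the genotypes numbered 8 above and 0 below, of 81, both smaller shares than the 14.4% and 15.1% of all genes. Cox6a2, the muscle copy of Cox6a1, was the nuclear member with an unadjusted p below 0.05, and the 1 called higher with the number as a term. It rested on 1 and 12 UMIs in WT and 17 and 32 UMIs in ACC1 KO, and passed the filter on low counts through the ACC1 KO libraries, so nothing is read from its test. In cycling cells alone it had 0 and 0 UMIs in WT and 9 and 17 in ACC1 KO, and it was not detected in iNKT2-like cells.

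In the classes, by the edgeR quasi-likelihood test 0 members were called in iNKT1-like cells (background 0.00734% of 13626 genes), iNKT2-like cells (0% of 10603), cycling cells (0.0468% of 10686) or interferon-responding cells (0.048% of 10421), DESeq2 called 0 in each, and 1, 0, 1 and 1 members had an unadjusted p below 0.05. That member was mt-Nd1 in each of the 3 classes, at -0.61 ± 0.20, -0.58 ± 0.22 and -0.64 ± 0.22. With the number as a term, and so with a spread mostly shared across genes, these counts changed in 3 of the 4 classes. In iNKT1-like cells 1 member was higher and 5 lower (against 5.42% and 3.72% of all genes), in cycling cells 0 and 3 (1.06% and 0.44%) and in interferon-responding cells 0 and 7 (3.4% and 1.84%), all of them mitochondrial, and in iNKT2-like cells 0 and 0 (0.821% and 0.198%). The mitochondrial medians were -0.26, -0.18, -0.29 and -0.33, and the nuclear medians 0.06, -0.07, -0.08 and 0.03. iNKT1-like cells of the genotypes lay in partly different clusters: the cluster led by Gzma, Ccl5 and Ifitm2 held 116 and 219 WT and 955 and 1034 ACC1 KO cells, and that led by Klra1, Izumo1r and Cd160 held 601 and 603 WT and 96 and 107 ACC1 KO cells.

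The genotype difference itself was compared between iNKT2-like and iNKT1-like cells. By the edgeR quasi-likelihood test 0 members were called, against 0.271% of 13306 genes; 2 members had an unadjusted p below 0.05, among them mt-Nd3 (0.46), and the one other scaling run, DESeq2 size factors in edgeR, also gave 0. Of the nuclear members, without Cox7a1 and Cox6b2, 69 of 78 had a value below 0 (median -0.13). Of the mitochondrial members 2 of 13 did (median 0.08), beside a median of 0.001 over all genes. How many of all genes lay below 0 was not counted, so these signs are not read as a result about the members.

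The libraries also differed by number, in a fit whose spread was likewise mostly shared across genes. With genotype as a term, 38 of 81 nuclear members were higher in number 2 and 3 lower (median 0.25), and 1 of 13 mitochondrial members was higher and 8 lower (median -0.46), against 16.3% higher and 14.5% lower among all genes and a median of 0.00. Cox6a1 had 98.6 and 95.4 CPM in number 1 and 242 and 227 CPM in number 2 (1.27 ± 0.11). Atp5e and Ndufb4, an accessory subunit of complex I, were also higher in number 2 (0.92 ± 0.12 and 0.77 ± 0.10). Sdha (-0.45 ± 0.10), Atp5g3 (-0.48 ± 0.11) and Ndufa8, an accessory subunit of complex I (-0.43 ± 0.10), were the 3 lower in number 2. Among mitochondrial genes mt-Atp6 differed by -1.57 ± 0.13 and mt-Nd3 by -0.93 ± 0.12, while mt-Nd2 went the other way, at 336 and 271 CPM in number 1 and 880 and 638 CPM in number 2 (1.31 ± 0.12). Of 9 RNA quality and handling genes 6 were higher in number 2 (median 0.88), among them Fos (2.86 ± 0.13) and Jun (2.40 ± 0.12), which are induced by handling; their part in the difference was not tested, and it cannot be told apart from depth and sex.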

How the data were processed

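Counts of unique molecular identifiers (UMIs) per gene and barcode were deposited by the authors for 4 thymic iNKT cell libraries, 2 WT and 2 ACC1 KO. They were made with Cell Ranger 7.0.0 on mm10, per the submitters' processing notes, from Chromium 3′ version 3.1 libraries, per the labels' protocols. Whether introns were counted is not given in the sources used here. The members and gene lists were chosen with earlier results of these data known.

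Barcodes were kept as cells from 500 detected genes and 1000 UMIs upwards if mitochondrial UMIs made up under 10%. Doublets were scored against simulated ones, and 0.8% of cells per 1000 cells were removed. Cells were clustered with scanpy 1.11.5 (2000 variable genes without the members, 30 components, 15 neighbours, Leiden resolution 1) and clusters were named from marker sets, by score limits set after the data were seen. Clusters that resembled double-positive thymocytes, B cells or myeloid cells were left out. UMIs were summed per library, and per library and class. Differences were tested with the edgeR 4.0.16 quasi-likelihood test in R 4.3.3 (TMM factors, filterByExpr, Benjamini-Hochberg over all genes tested, threshold 0.05), checked on simulated counts. DESeq2 1.42.0 was an alternative. Genotype was tested within classes of at least 50 cells per library, and classes against iNKT1-like cells with at least 20. CPM use TMM-scaled totals, for all iNKT cells as for classes. On unscaled totals of the summed iNKT cells 1 CPM stands for 23.6 to 65.2 UMIs. Floors use these unscaled totals and cover counting error only, while standard errors come from the fits. Named were all 13 mitochondrial members, up to 3 nuclear members per complex and direction with the smallest p, called members, isoform groups, Sdha to Sdhd and Cycs; other names are said to be so. Alternatives covered scaling, filters, mitochondrial limits, doublets, clustering, depth, class mix, the replicate number and leaving out each library. Promoters came from RefSeq on GRCm38.p6, the same assembly as mm10, by gene symbol.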

Additional observations from a re-analysis of the deposited data

Results flagged for a closer look

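mt-Nd3 in iNKT0-like against iNKT1-like cells stood out because the change differed between the genotypes, with little change in the WT libraries and a rise in the ACC1 KO libraries. It had 650 and 375 CPM in iNKT1-like and 613 and 357 CPM in iNKT0-like cells of the WT libraries, log2 differences of -0.07 and -0.05. In the ACC1 KO libraries it had 465 and 223 CPM and then 637 and 389 CPM, differences of 0.46 and 0.81. The means of the genotypes were 0.70 apart on the log2 scale, and this difference was not tested. Over the 4 libraries the change was 0.30 ± 0.11 (adjusted p = 0.031, edgeR quasi-likelihood test with Benjamini-Hochberg adjustment), a call that was lost without ACC1 KO 1 (0.27) or ACC1 KO 2 (0.21). The iNKT0-like sums rest on 77 and 49 WT and 129 and 93 ACC1 KO cells.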

How the results depend on the processing

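Numbers of members called, medians and shares are compared here with the values reported above. In the genotype comparison 0 members were called under the alternatives run, except with the number as a term: under this replicate block 1 member was higher and 4 lower in all iNKT cells (5.81% and 3.28% of all genes), 1 and 5 in iNKT1-like (5.42% and 3.72%), 3 lower in cycling (0.44%) and 7 lower in interferon-responding cells (1.84%). The labels do not say that the numbers pair the samples; same-numbered libraries deviated together (correlation 0.70 over 14564 genes), which with 2 numbers is a single comparison. Leaving out each library in turn, the nuclear genotype median ran from -0.093 to 0.31 and the mitochondrial one from -0.39 to 0.10; the ratio of ACC1 KO to WT shares ran from 0.921 to 1.15 (nuclear) and 0.582 to 1.13 (mitochondrial), an alternative chosen after seeing the data. The mitochondrial ratio was 0.815, 0.789 as a median over cells and 0.805 with the same mix of classes. Single genes changed sign: without WT 2 or ACC1 KO 1, mt-Nd2 was 0.44 or 0.084, mt-Nd4l -0.26 or -0.42 and mt-Co1 -0.23 or -0.32; without WT 1 or ACC1 KO 2, mt-Nd5 was 0.096 or 0.072, mt-Co2 0.20 or 0.12 and mt-Atp6 0.84 or 0.44; mt-Nd3 was 0.023 without WT 1, and mt-Atp8 -0.038 without ACC1 KO 1. At the other end of their ranges over the libraries left out were mt-Nd2 at -1.17, mt-Nd3 -1.04, mt-Nd4l 0.43, mt-Nd5 -0.39, mt-Co1 0.51, mt-Co2 -0.81, mt-Atp6 -1.14 and mt-Atp8 0.57. Against iNKT1-like cells, with Cox7a1 and Cox6b2 counted, members called higher in iNKT0-like cells went from 17 to 28 with DESeq2 size factors, 30 with the DESeq2 Wald test, 9 without a filter on low counts, 26 at a mitochondrial limit of 5%, 27 with mitochondrial UMIs left out of totals and 9 with cells thinned to 2000 UMIs. In iNKT17-like cells they went from 21 to 35, 38, 33 and 12 with the size factors, the Wald test, the 5% limit and thinning, and those lower from 3 to 7, 1 and 1 without the filter, at the 5% limit and on thinning; the DESeq2 Wald test had 1987 genes higher and 1323 lower there, against 1535 and 1671. In iNKT2-like cells those lower went from 4 to 7 without the filter and 1 on thinning. At resolution 0.5 cycling cells had 44 members higher, interferon-responding cells 1 lower, and no iNKT0-like cluster formed; mt-Nd1 in cycling cells was -0.082 there and -0.014 at resolution 2. Without each library in turn, higher and lower calls ran from 72 to 76 and 2 to 4 in iNKT2-like, 58 to 68 and 5 to 11 in cycling, 13 to 25 and 13 to 22 in iNKT0-like, and 16 to 30 and 0 to 3 in iNKT17-like cells, and the class difference in genotype had 0 to 1 higher. In the comparisons with iNKT1-like cells, calls over all genes under an alternative are given only for the Wald test in iNKT17-like cells. The other counts under these alternatives are not read as results about the members. The causes were not tested. Of the settings for single named genes, 1040 kept direction and call, 49 lost the call, 4 gained one and 16 changed sign. The thin classes, 26 to 82 iNKT17-like and 49 to 129 iNKT0-like cells per library, limit what depth can show.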
